A study of Mus musculus with 8 samples.

Results

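The genes described here are 36 genes that mark or serve macrophages, monocytes and dendritic cells, measured by RNA sequencing in the mouse submandibular gland, which makes much of the saliva. They were taken by symbol from a list of such genes and are 36 of the 54838 genes in the count tables. That list was chosen with earlier results of these data known. All 36 passed the expression filter, as did 19358 genes in all. The study compared 2 genotypes of male mice, WT, the strain C57BL/6J, and Dp16, the strain B6.129S7-Dp(16Lipi-Zbtb21)1Yey/J, with 4 libraries each. Dp16 mice carry a germline duplication of the chromosome 16 segment from Lipi to Zbtb21, so that its genes have 3 copies in place of 2, and serve as a model of Down syndrome. None of the 36 genes lies on chromosome 16. No treatment is named in the labels, the ages of the mice are not stated there, and nothing states that each library came from a separate mouse, so p-values measure the spread between these libraries. The series title names calcium, reduced salivation and the oral microbes as its subject.

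Macrophages live in the connective tissue of glands, engulf dying cells and foreign particles, and carry Fc receptors, complement receptors and Toll-like receptors with which they sense antibody-coated or microbial material. Most depend on the receptor Csf1r and on the transcription factor PU.1, the product of Spi1. Monocytes are their blood-borne relatives, which leave the bone marrow and enter tissues through the chemokine receptor Ccr2, while dendritic cells depend on the receptor Flt3 and carry antigens to T cells, with Xcr1 and Clec9a marking the conventional type 1 dendritic cells that present antigen from dead cells to CD8 T cells. In RNA from whole glands, the number of cells of a type and the RNA per cell cannot be told apart.

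Libraries held 90790542 to 115729892 reads in genes. Markers of gland acinar cells summed to 234861 to 334518 CPM in WT and 210614 to 285595 CPM in Dp16 (CPM, a gene's share of the reads in genes, scaled by the usual CPM factor and by TMM), and markers of granular duct cells to 42708 to 81824 and 24851 to 53592 CPM, so both labelled groups had the secretory cells of this gland. Reads that overlapped no counted feature took 13.8% to 15.9% of a WT library and 18.4% to 20.8% of a Dp16 library. Dp16 libraries stood apart from each other in the genes described here: replicate 3 was the highest of all 8 libraries in 29 of the 36 genes (80.6%, against 21.6% of all genes tested), and replicate 2 was the lowest of the 4 Dp16 libraries in 31 (86.1%, against 26.2%). Values are therefore given per library, and results that rest on either library are also given without it.

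Promoter windows of RefSeq on GRCm38.p6 were found for 25 of the 36 genes, and 4 are shown here because their genes stand for the patterns described in the next paragraphs: Itgam, Fcgr1 and C1qb, highest in Dp16 replicate 3, and Flt3, high in Dp16 replicates 1, 3 and 4. They were chosen after the values were seen. Each is the 250 bases before the annotated start, written in the direction of transcription, with capitals at the letters GAGGAA or their reverse complement TTCCTC, the core of many PU.1 binding sites. Itgam lies at chr7:128062390-128062639 on the plus strand, Fcgr1 at chr3:96293970-96294219, C1qb at chr4:136886201-136886450 and Flt3 at chr5:147400490-147400739, all 3 on the minus strand.
Itgam: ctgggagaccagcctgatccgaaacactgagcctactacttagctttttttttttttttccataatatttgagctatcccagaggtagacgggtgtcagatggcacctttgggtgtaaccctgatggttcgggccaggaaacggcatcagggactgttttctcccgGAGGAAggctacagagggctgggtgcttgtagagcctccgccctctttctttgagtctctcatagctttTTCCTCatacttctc
Fcgr1: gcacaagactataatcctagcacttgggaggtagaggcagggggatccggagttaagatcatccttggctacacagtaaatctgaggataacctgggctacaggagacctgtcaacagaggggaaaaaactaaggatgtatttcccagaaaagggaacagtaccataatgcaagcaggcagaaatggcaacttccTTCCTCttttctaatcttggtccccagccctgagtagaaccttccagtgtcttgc
C1qb: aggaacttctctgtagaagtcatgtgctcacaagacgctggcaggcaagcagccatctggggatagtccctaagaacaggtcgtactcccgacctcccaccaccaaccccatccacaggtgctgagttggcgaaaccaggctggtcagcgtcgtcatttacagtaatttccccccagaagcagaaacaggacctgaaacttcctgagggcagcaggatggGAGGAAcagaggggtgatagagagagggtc
Flt3: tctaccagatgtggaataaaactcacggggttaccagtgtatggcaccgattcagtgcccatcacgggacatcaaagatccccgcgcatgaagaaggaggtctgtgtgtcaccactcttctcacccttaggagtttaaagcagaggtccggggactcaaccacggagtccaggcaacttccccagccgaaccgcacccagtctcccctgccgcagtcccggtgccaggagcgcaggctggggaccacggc
The nearest match began 15 bases before the start in Itgam, 55 in Fcgr1 and 30 in C1qb, and the Flt3 window held none. Read on both strands, GAGGAA was in 11 of the 27 windows of these genes (40.7%) and in 23.3% of all 32851 RefSeq promoter windows. By gene it was in 10 of 25 (40%), since the windows of Fcgr3 overlap and share the same match. The longer letters GAGGAAGT, which were searched first, were in 1 of the 27 windows, that of C1qc, and in 2.44% of all windows. The shorter letters contain every match of the longer ones and were added after that result. These are matches of letters only, and binding was not measured.

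No gene of the 36 passed an adjusted p below 0.05 in edgeR's quasi-likelihood test of Dp16 against WT, where 0.47% of all genes tested were called higher and 0.155% lower. At an unadjusted p below 0.05, 8 were higher in Dp16 (Itgam, Cx3cr1, Ccr2, Tlr2, Flt3, Clec9a, Csf2rb and Cybb) and 0 lower, against 12.7% and 11.9% of all genes. Libraries of the 2 genotypes did not overlap for 1 gene, Ccr2, which was higher in all 4 Dp16 libraries, and for 0 in the other direction, against 7.11% and 6.96% of all genes. The log2 fold change was positive for 34 of the 36, with a median of 0.30 against 0.01 over all genes tested. Without Dp16 replicate 3 it was positive for 23 with a median of 0.11, 0 were called (0.224% of all genes higher and 0.0611% lower), and 5 were higher and 3 lower at an unadjusted p below 0.05, against 9.69% and 8.17% of all genes. Without Dp16 replicate 2 the median was 0.41, and 17 were higher and 0 lower, against 13.2% and 12.5%. Calls depended on the test: DESeq2 called 4 of the 36 higher (Ccr2, Flt3, Clec9a and Cybb) and 0 lower, where it called 5.89% of all genes higher and 4.37% lower. Limma-voom called 1 higher, Ccr2, and 0 lower, against 1.28% and 0.77% of all genes. Without Dp16 replicate 2, edgeR called 6 higher (Cx3cr1, Ccr2, Flt3, Clec9a, Csf2rb and Cybb) and 0 lower, against 1.8% and 0.467%. With the replicate number as a block it called 0 of the 36, against 1.86% and 2.15%.

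**Figure D1:**
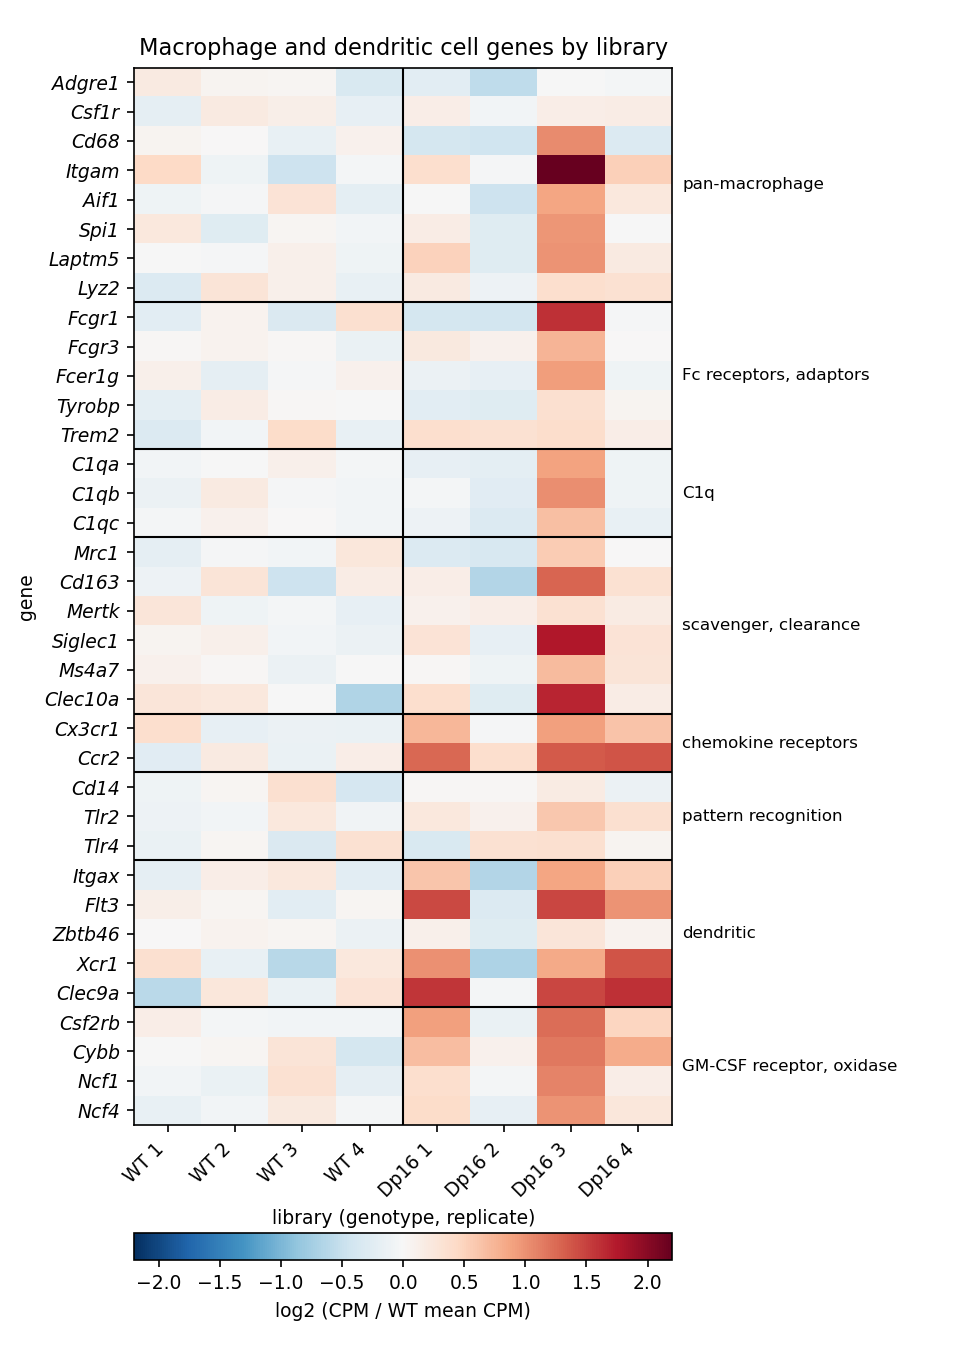
Colour shows the log2 ratio of TMM-scaled CPM in each library to the WT mean, with the 36 genes in rows grouped by role and the 8 libraries in columns. The column of Dp16 replicate 3 is red through most rows, while Dp16 replicates 1 and 4 are red mainly in the rows of chemokine receptors, dendritic cell genes, Csf2rb and Cybb.

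Levels of different genes were compared per kilobase of exon in WT. Lyz2, the lysozyme of macrophages, had the highest mean, 44.6 ± 8.15 CPM per kilobase (SD, n = 4). It was followed by C1qa at 36.2 ± 2.00 and C1qb at 24.3 ± 2.51, chains of the recognition molecule of complement. Tyrobp, the signalling adaptor of Trem2, came next at 17.99 ± 1.89 CPM per kilobase. The dendritic cell genes Clec9a, Flt3 and Xcr1 were lowest, at 0.143 ± 0.0383, 0.138 ± 0.0147 and 0.0781 ± 0.0218 CPM per kilobase. Between neighbours in this order the bands of 1 SD overlapped in 24 of 35 pairs, so much of the order is not resolved. Lyz2 and C1qa at the top, and Clec9a and Flt3 near the bottom, were among the overlapping pairs. Lyz2 has a near-identical copy, Lyz1, and how the counting split reads between them was not tested, so its level is uncertain.

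Among the 8 genes found across macrophages and monocytes, the 2 most widely used to define tissue macrophages, Adgre1 and Csf1r, had log2 fold changes close to 0. Adgre1, which encodes the F4/80 antigen (ENSMUSG00000004730, chromosome 17, 57358691 to 57483527, plus strand, GRCm38), had 32.0, 29.0, 28.7 and 22.3 CPM in WT replicates 1 to 4 and 23.8, 18.9, 28.0 and 27.2 CPM in Dp16 replicates 1 to 4. The groups overlapped, with the lowest library in Dp16 and the highest in WT, and the log2 fold change was -0.19 (SE 0.15, edgeR adjusted p = 0.425, 95% interval -0.52 to 0.13). Csf1r, the receptor for the macrophage growth factors Csf1 and Il34, had 43.7, 57.6, 55.1 and 44.5 CPM in WT and 55.5, 48.4, 55.9 and 56.1 CPM in Dp16. All 4 Dp16 values lay inside the WT range, and the log2 fold change was 0.10 (SE 0.11, edgeR adjusted p = 0.568, 95% interval -0.14 to 0.34). Exons of Csf1r overlap the antisense gene Hmgxb3, and the strand setting of the counting is not given in the sources used here, so the 2 cannot be told apart where they overlap. Lyz2 had 47.4, 71.1, 63.8 and 52.6 CPM in WT and 67.3, 54.6, 75.6 and 74.3 CPM in Dp16, also overlapping (0.21, edgeR adjusted p = 0.392).

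The other 5 genes of this role had their highest value in Dp16 replicate 3 together with overlapping groups. Cd68, a lysosomal glycoprotein of phagocytes, had 7.23, 6.93, 6.17 and 7.36 CPM in WT and 5.28, 5.14, 14.2 and 5.63 CPM in Dp16. Dp16 replicate 3 was above all other libraries and the remaining Dp16 libraries were below all WT libraries, so that the log2 fold change was 0.13 with all libraries (edgeR adjusted p = 0.825) and -0.37 without that library (edgeR adjusted p = 0.158). Itgam, the CD11b integrin chain of monocytes, macrophages, neutrophils and natural killer cells, had 3.16, 2.18, 1.70 and 2.26 CPM in WT and 3.00, 2.29, 10.9 and 3.33 CPM in Dp16. Its log2 fold change of 1.07 (SE 0.47, edgeR adjusted p = 0.199) became 0.31 (edgeR adjusted p = 0.493) without Dp16 replicate 3. Exons of Itgam overlap the gene model Gm49368 on the same strand. Aif1, the actin-binding protein Iba1, and Spi1 had 7.12 and 4.67 CPM in that library against WT ranges of 3.36 to 4.81 and 1.99 to 2.80. Without it their log2 fold changes went from 0.24 and 0.29 to -0.05 and -0.02, none called. Laptm5, a lysosomal membrane protein of most leukocytes, had 28.4 CPM there and 20.4, 11.9 and 16.5 CPM in Dp16 replicates 1, 2 and 4, against 13.5 to 15.6 CPM in WT (0.43, edgeR adjusted p = 0.265). Its log2 fold change was 0.18 without Dp16 replicate 3.

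Fc receptors bind the constant part of antibodies, and their adaptors Fcer1g and Tyrobp carry the signalling motifs. Fcgr1, the high-affinity IgG receptor, had 4.03, 4.97, 3.78 and 6.04 CPM in WT and 3.59, 3.55, 14.3 and 4.61 CPM in Dp16. The library of Dp16 replicate 3 was 3.64-fold above the mean of the other Dp16 libraries, which lay within or below the WT range, and the log2 fold change of 0.47 (SE 0.44, edgeR adjusted p = 0.529) turned to -0.27 without it (edgeR adjusted p = 0.486). Fcer1g had 5.50 to 6.76 CPM in WT, 11.9 CPM in Dp16 replicate 3 and 5.53 to 5.90 CPM in the other Dp16 libraries, and its log2 fold change likewise went from 0.21 to -0.13. Fcgr3, a low-affinity IgG receptor also carried by natural killer cells and neutrophils, had 7.97, 8.24, 7.90 and 7.04 CPM in WT and 9.06, 8.29, 13.0 and 7.80 CPM in Dp16 (0.29, edgeR adjusted p = 0.28). Its log2 fold change was 0.11 without Dp16 replicate 3. Tyrobp had 10.4 to 13.5 CPM in WT and 10.01 to 15.3 CPM in Dp16, with a log2 fold change of 0.00 (SE 0.15, edgeR adjusted p = 0.996). Trem2, a lipid receptor that signals through Tyrobp, had 1.58, 1.88, 2.60 and 1.75 CPM in WT and 2.51, 2.46, 2.55 and 2.17 CPM in Dp16. Dp16 replicate 3 did not stand apart for Trem2, and the groups overlapped through WT replicate 3 (0.31, edgeR adjusted p = 0.296).

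C1qa, C1qb and C1qc encode the chains of C1q, made largely by tissue macrophages, and lie next to each other on chromosome 4 (136880129 to 136898803, minus strand, GRCm38). C1qa had 36.2, 37.3, 40.7 and 36.5 CPM in WT and 33.4, 32.5, 69.8 and 35.1 CPM in Dp16. C1qb had 24.0, 30.3, 26.0 and 25.3 CPM in WT and 25.7, 22.1, 53.7 and 24.7 CPM in Dp16. C1qc had 27.9, 30.9, 29.1 and 27.5 CPM in WT and 26.6, 23.4, 45.8 and 25.8 CPM in Dp16. All chains had 1 high library, Dp16 replicate 3, and the other Dp16 libraries lay within or below the WT range. The log2 fold changes were 0.18, 0.26 and 0.07 with edgeR adjusted p-values of 0.651, 0.56 and 0.834. Without Dp16 replicate 3 all 3 were negative (-0.16, -0.13 and -0.19, edgeR adjusted p-values 0.28, 0.532 and 0.264). C1qa, C1qc and Cd68 were then the 3 genes lower at an unadjusted p below 0.05.

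**Figure D2:**
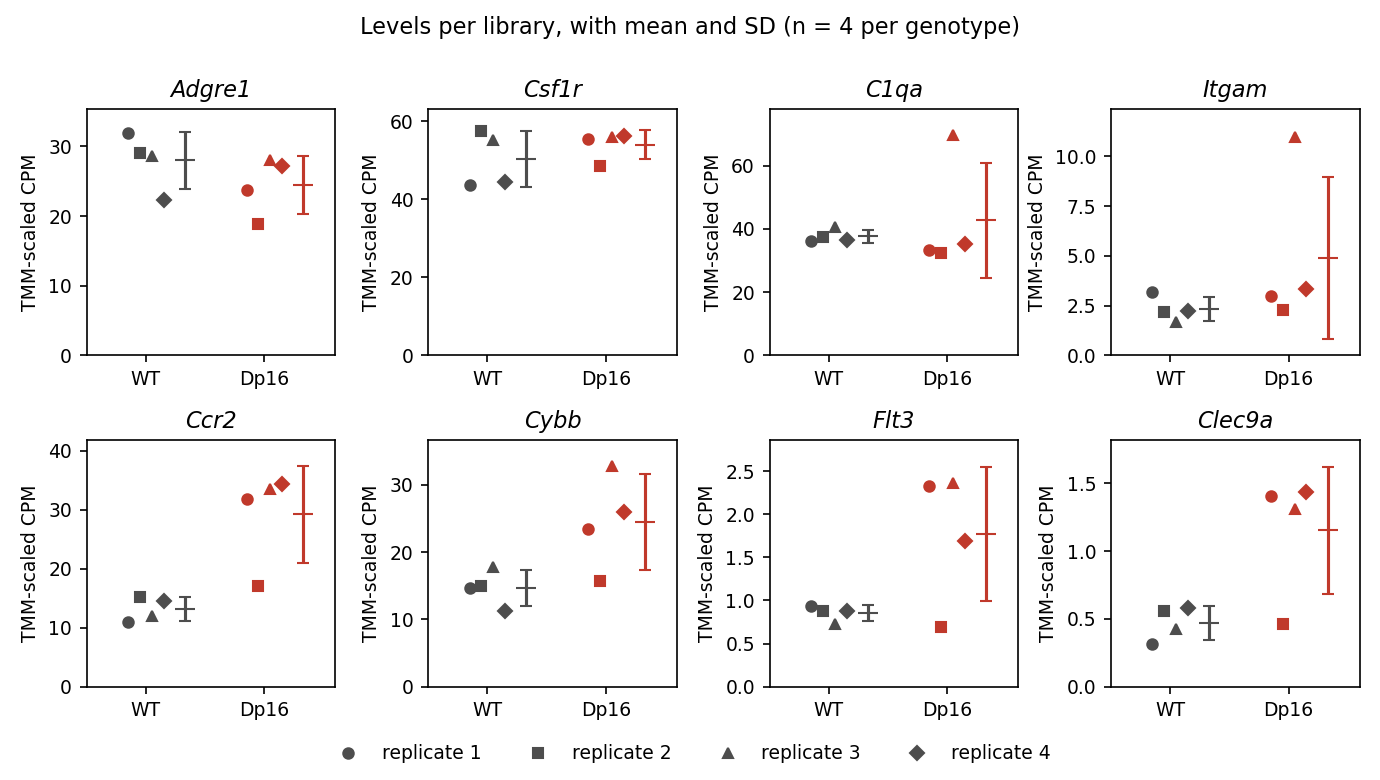
Points show TMM-scaled CPM of 8 genes in each library, WT in grey and Dp16 in red with a symbol per replicate, and the bars give the mean and SD of 4 libraries. Itgam and C1qa have 1 high Dp16 library, replicate 3, while Ccr2, Cybb, Flt3 and Clec9a have 3 high Dp16 libraries and a replicate 2 close to WT.

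Scavenger and clearance receptors take up debris, lipoproteins and glycoproteins. Siglec1, the sialic acid receptor of tissue macrophages, also known to respond to interferon, had 12.0, 12.4, 10.97 and 10.5 CPM in WT and 14.1, 10.1, 38.7 and 14.1 CPM in Dp16. Dp16 replicates 1, 3 and 4 were above the WT range and replicate 2 below it, and the log2 fold change of 0.75 (SE 0.37, edgeR adjusted p = 0.24) was 0.15 without Dp16 replicate 3. Clec10a, a galactose-binding lectin of macrophages and dendritic cells, had 3.16 to 6.05 CPM in WT and 6.47, 4.15, 16.0 and 5.58 CPM in Dp16 (0.69, edgeR adjusted p = 0.311, and 0.11 without Dp16 replicate 3). Cd163, the receptor for haemoglobin bound to haptoglobin, had 9.49 to 15.9 CPM in WT and 14.5, 8.28, 31.7 and 16.4 CPM in Dp16 (0.45, edgeR adjusted p = 0.448, and 0.00 without that library). Mrc1, the mannose receptor, had 57.3, 64.7, 63.1 and 78.2 CPM in WT and 53.3, 51.6, 97.0 and 66.5 CPM in Dp16. Its group means were 65.8 ± 8.88 and 67.1 ± 21.0 CPM (SD, n = 4), a log2 fold change of 0.03 with all libraries (edgeR adjusted p = 0.946) and -0.20 without Dp16 replicate 3. Mertk, a receptor through which macrophages clear dying cells, had 27.9, 21.7, 22.4 and 20.4 CPM in WT and 24.8, 25.4, 29.2 and 26.1 CPM in Dp16 (0.19, edgeR adjusted p = 0.293). Ms4a7, a membrane protein of macrophages, had 6.12 to 7.13 CPM in WT and 6.21 to 10.8 CPM in Dp16 (0.26, edgeR adjusted p = 0.355, and 0.08 without Dp16 replicate 3).

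The chemokine receptors had another pattern. Ccr2, the receptor for Ccl2 and Ccl7 on inflammatory monocytes (ENSMUSG00000049103, chromosome 9, 124101950 to 124113557, plus strand, GRCm38), had 11.03, 15.2, 12.0 and 14.6 CPM in WT and 31.8, 17.1, 33.6 and 34.4 CPM in Dp16. All 4 Dp16 libraries were above all 4 WT libraries, with replicate 2 close to the highest WT library and the other 3 far above it. Means were 13.2 ± 2.00 and 29.2 ± 8.16 CPM (SD, n = 4). The log2 fold change was 1.15 (SE 0.21, 95% interval 0.67 to 1.63) with an edgeR adjusted p of 0.0532, just above the threshold. Leaving out 1 library at a time gave edgeR adjusted p-values of 0.0233, without Dp16 replicate 2, to 0.139, and the log2 fold change without Dp16 replicate 3 was 1.07. Ccr2 is also carried by some T cells and natural killer cells. Cx3cr1, the receptor of Cx3cl1 on resident macrophages and patrolling monocytes, had 10.9, 7.43, 7.74 and 7.65 CPM in WT and 13.98, 8.26, 15.8 and 13.1 CPM in Dp16. Dp16 replicates 1, 3 and 4 exceeded all WT libraries and replicate 2 lay within the WT range (0.60, SE 0.20, edgeR adjusted p = 0.13). Exons of Cx3cr1 overlap the antisense gene Gm33858.

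Pattern recognition receptors sense microbial products, and of the 8 roles they had the smallest spread of the mean log2 CPM over Dp16 libraries (SD 0.17, n = 4). Cd14, which hands bacterial lipopolysaccharide to Tlr4, had 18.6, 20.4, 25.4 and 15.4 CPM in WT and 20.2, 20.4, 22.7 and 18.2 CPM in Dp16, every Dp16 value inside the WT range (0.03, edgeR adjusted p = 0.916). Tlr4 had 24.5 to 38.4 CPM in WT and 24.3 to 39.2 CPM in Dp16 (0.13, edgeR adjusted p = 0.672). Tlr2, the receptor for bacterial lipoproteins, had 3.18, 3.27, 4.02 and 3.24 CPM in WT and 4.01, 3.67, 5.19 and 4.39 CPM in Dp16. Its Dp16 values exceeded those of WT replicates 1, 2 and 4 and overlapped the range only through WT replicate 3 (0.33, SE 0.14, edgeR adjusted p = 0.19).

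The dendritic cell genes were the role in which Dp16 replicates 1, 3 and 4 were above the WT range for all 5 genes and replicate 2 for none. Of all genes tested, 28.7%, 24.2%, 31.8% and 24.7% were above the WT range in Dp16 replicates 1 to 4. Clec9a, the receptor for dead cells on type 1 dendritic cells, had 0.312, 0.562, 0.426 and 0.581 CPM in WT and 1.41, 0.459, 1.31 and 1.44 CPM in Dp16, from 31 to 154 reads per library. Its log2 fold change was 1.29 (SE 0.37, 95% interval 0.45 to 2.12, edgeR adjusted p = 0.0999), 1.22 without Dp16 replicate 3 and 1.55 without Dp16 replicate 2 (edgeR adjusted p = 0.0298). Exons of Clec9a overlap Clec1b on the same strand. Xcr1, the chemokine receptor that marks the same cells, had 0.443, 0.312, 0.228 and 0.408 CPM in WT and 0.695, 0.217, 0.622 and 0.909 CPM in Dp16, from only 23 to 88 reads (0.81, SE 0.41, edgeR adjusted p = 0.258). Flt3 had 0.936, 0.875, 0.724 and 0.876 CPM in WT and 2.33, 0.693, 2.37 and 1.69 CPM in Dp16. Dp16 replicate 2 was below all WT libraries, and the log2 fold change of 1.05 (SE 0.34, edgeR adjusted p = 0.122) was 1.32 without it (edgeR adjusted p = 0.0251). Itgax, the CD11c integrin chain of dendritic cells and some macrophages, had 2.46, 3.11, 3.32 and 2.40 CPM in WT and 4.29, 1.81, 5.12 and 4.08 CPM in Dp16 (0.44, edgeR adjusted p = 0.36). Zbtb46, a transcription factor of conventional dendritic cells that endothelium also expresses, had 3.59 to 4.13 CPM in WT and 4.26, 3.26, 4.72 and 4.16 CPM in Dp16. Its Dp16 replicates 1, 3 and 4 were above the WT range, replicate 4 only just. The log2 fold change was 0.06 (SE 0.13, edgeR adjusted p = 0.811), and -0.015 without Dp16 replicate 3.

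Csf2rb is the shared signalling chain of the receptors for GM-CSF, IL-3 and IL-5, and Cybb, Ncf1 and Ncf4 are parts of the phagocyte NADPH oxidase, which makes superoxide against engulfed microbes. Cybb, its catalytic membrane subunit (ENSMUSG00000015340, chromosome X, 9435252 to 9487771, minus strand, GRCm38), had 14.6, 15.0, 17.8 and 11.2 CPM in WT and 23.4, 15.7, 32.8 and 25.9 CPM in Dp16. Dp16 replicates 1, 3 and 4 were above all WT libraries and replicate 2 among them (0.74, SE 0.21, 95% interval 0.26 to 1.22, edgeR adjusted p = 0.101, and 0.57 without Dp16 replicate 3). Csf2rb had 3.11, 2.72, 2.71 and 2.69 CPM in WT and 5.25, 2.52, 6.60 and 3.90 CPM in Dp16, the same 3 libraries above WT and replicate 2 below it (0.70, SE 0.26, edgeR adjusted p = 0.15). Csf2rb has a near-identical neighbour, Csf2rb2, and how the counting split reads between them was not tested, so its level is uncertain. Ncf1 and Ncf4, cytosolic subunits of the oxidase, had 10.2 and 3.84 CPM in Dp16 replicate 3, 4.67 to 6.196 and 1.71 to 2.57 CPM in the other Dp16 libraries, and 4.17 to 6.10 and 1.73 to 2.25 CPM in WT. Their log2 fold changes of 0.46 and 0.43 (edgeR adjusted p = 0.271 and 0.284) were 0.17 and 0.18 without Dp16 replicate 3. Exons of Ncf1 overlap the antisense gene Gtf2ird2.

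**Figure D3:**
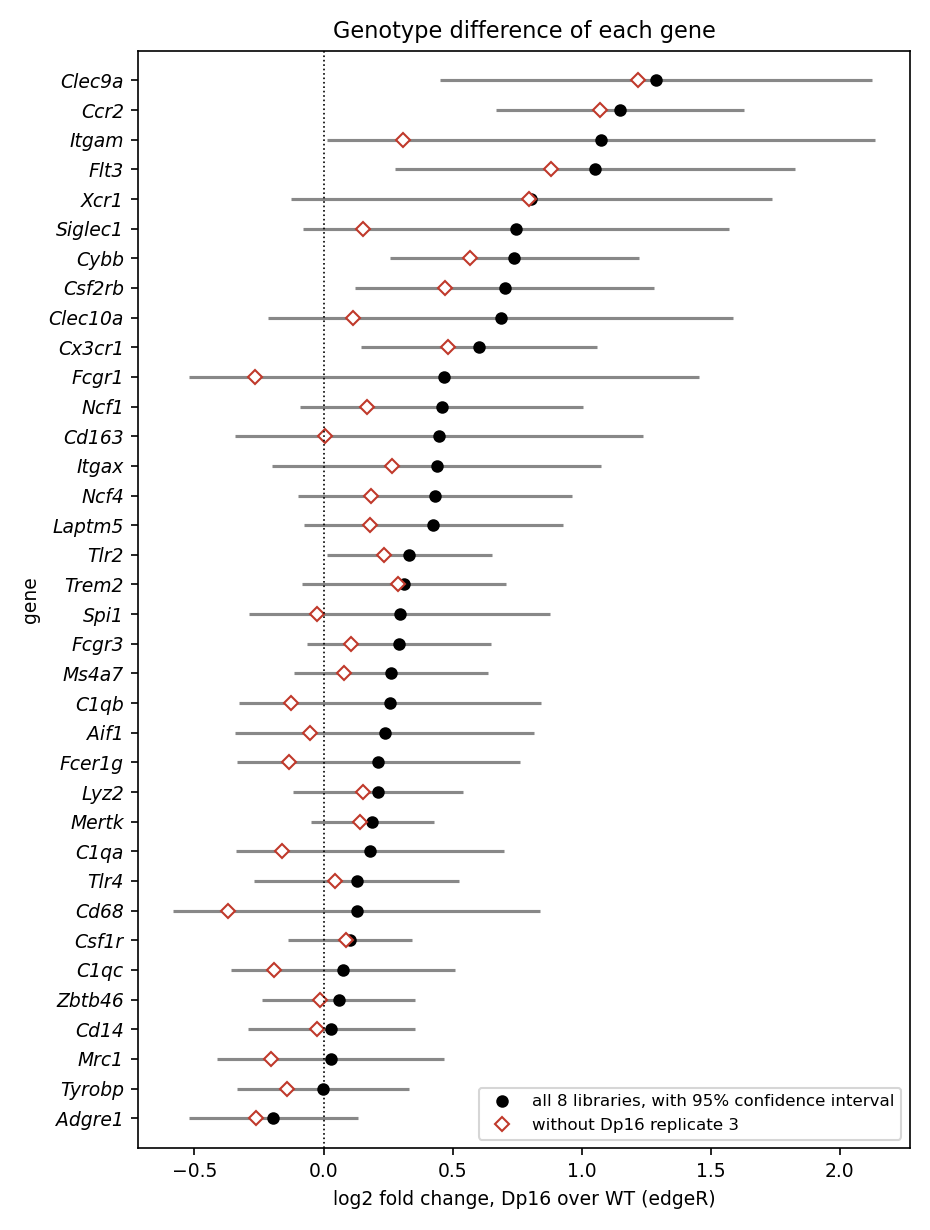
Filled points give the edgeR log2 fold change of Dp16 over WT for each of the 36 genes with its 95% confidence interval, and open diamonds the value without Dp16 replicate 3. The open diamonds of Clec9a, Ccr2, Flt3, Xcr1, Cybb and Cx3cr1 stay at 0.48 or above, while those of Cd68, Fcgr1 and the C1q chains lie below 0.

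A score per role, the mean log2 CPM of its genes in a library minus the WT mean, set the patterns side by side. For C1q it was -0.11, -0.25, 0.86 and -0.12 in Dp16 replicates 1 to 4, with WT libraries between -0.08 and 0.10. For dendritic cell genes it was 0.95, -0.35, 0.98 and 0.92, with WT libraries between -0.11 and 0.09. For chemokine receptors it was 1.01, 0.19, 1.14 and 1.02, with WT libraries between -0.12 and 0.07. Only the chemokine receptors and none of the other 7 roles had all 4 Dp16 libraries above WT. Pan-macrophage genes (0.10, -0.26, 0.84 and 0.15, WT -0.11 to 0.05) and clearance receptors (0.12, -0.22, 1.07 and 0.23, WT -0.11 to 0.11) were highest in replicate 3. In these roles replicates 1 and 4 also lay above WT, by less. Fc receptors and adaptors (-0.02, -0.07, 0.81 and 0.03, WT -0.11 to 0.04) had only replicate 3 above WT. The oxidase role (0.60, -0.06, 1.13 and 0.43, WT -0.16 to 0.21) lay between the patterns. Pattern recognition receptors had -0.01, 0.17, 0.40 and 0.11 (WT -0.10 to 0.10). These scores describe the libraries and carry no test.

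**Figure D4:**
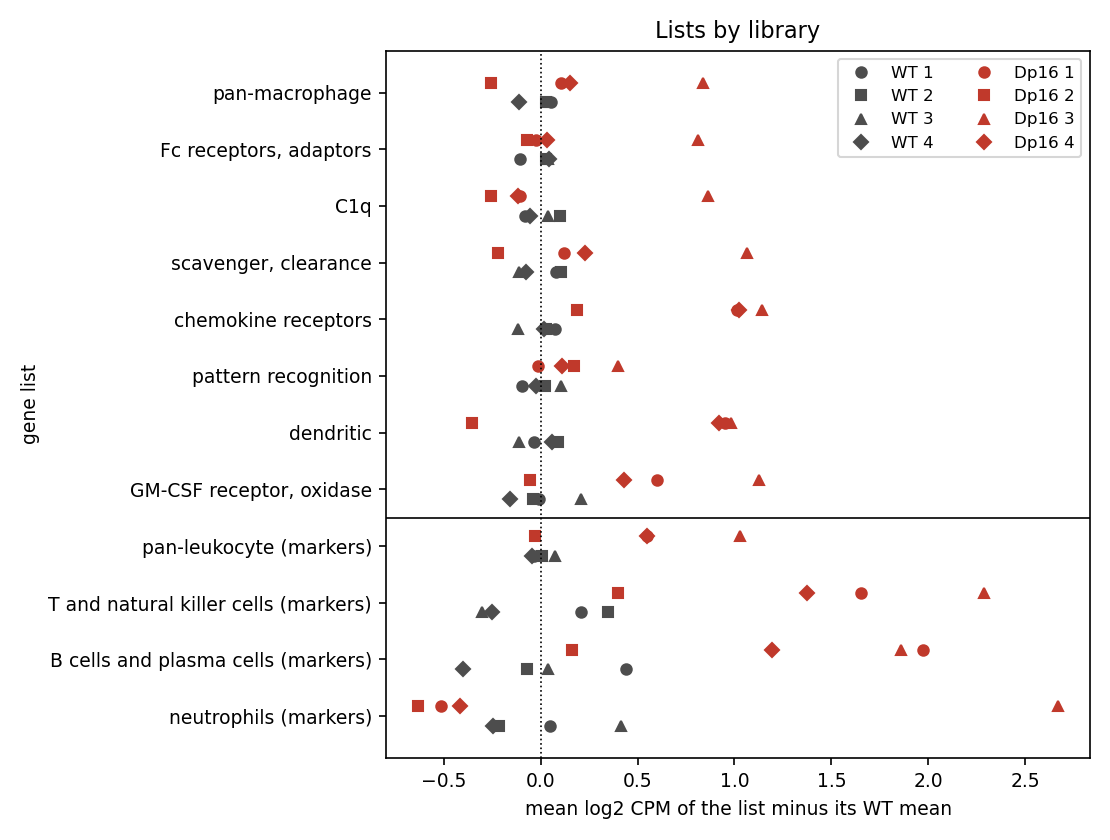
Each point is the mean log2 CPM of a gene list in 1 library minus its WT mean, WT in grey and Dp16 in red with a symbol per replicate, for the 8 roles and, under the line, 4 marker lists. C1q, Fc receptors and neutrophil markers have only Dp16 replicate 3 to the right of the WT points, while dendritic cell genes have Dp16 replicates 1, 3 and 4 there.

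Many genes of other leukocytes also had high values in Dp16 libraries. Ptprc, the CD45 antigen of all leukocytes, had 32.1, 32.7, 33.5 and 26.5 CPM in WT and 67.7, 40.0, 88.4 and 59.0 CPM in Dp16, all 4 above WT (1.03, SE 0.21, edgeR adjusted p = 0.0589, and 0.0452 with the replicate block). Ptprc was also called by limma-voom (adjusted p = 0.035) and, without Dp16 replicate 2, by edgeR (adjusted p = 0.0234). Of 14 markers of T and natural killer cells, 1 was called higher by edgeR, Klrd1, a receptor of natural killer cells (1.39, edgeR adjusted p = 0.0331). With any 1 library other than Dp16 replicate 2 left out it was no longer called, with edgeR adjusted p-values of 0.0502 to 0.09995. The log2 fold change was positive for 13 of the 14 with a median of 1.84, and 11 were higher at an unadjusted p below 0.05 by edgeR (12.7% of all genes). DESeq2 called 11 of them higher, limma-voom 2, and edgeR without Dp16 replicate 2 called 7. Without Dp16 replicate 3 edgeR called 0 and the median was 1.36. In that run 12 were higher at an unadjusted p below 0.05, against 9.69% of all genes. These 14 summed to 7.33 to 10.8 CPM in WT and to 24.7, 12.6, 41.0 and 20.6 CPM in Dp16 replicates 1 to 4, none at 0 in a WT library. Markers of B and plasma cells without the abundant Jchain summed to 14.7 to 19.98 CPM in WT and to 31.7, 18.2, 28.1 and 21.7 CPM in Dp16, with Fcer2a at 0 in WT replicate 3 and Dp16 replicate 2. For T and natural killer cells and for B cells without Jchain, replicate 2 was thus the lowest Dp16 library. Jchain, the joining chain of secreted antibodies, went otherwise, with 276, 305, 310 and 219 CPM in WT and 507, 470, 312 and 380 CPM in Dp16, so that replicate 3 was the lowest Dp16 library and the whole B and plasma cell list summed to 539, 489, 340 and 401 CPM in Dp16 replicates 1 to 4 and 233 to 330 CPM in WT. The 11 neutrophil markers summed to 2.07 to 4.01 CPM in WT, 16.4 CPM in Dp16 replicate 3 and 2.37 to 3.25 CPM in the other Dp16 libraries, with Ly6g at 0 in 7 of the 8 libraries and Camp and Ngp at 0 in every library but Dp16 replicate 3. Several of the 36 genes, among them Itgam, Spi1, Laptm5, Fcgr3, Tyrobp, Csf2rb, Cybb, Ncf1 and Ncf4, are also expressed by neutrophils, natural killer cells or B cells, and the part of those cells in the values was not tested. Endothelial markers summed to 36.6 to 46.5 CPM in WT and 50.3 to 53.5 CPM in Dp16. Summed acinar and granular duct markers were lowest of all libraries in Dp16 replicate 3, at 210614 and 24851 CPM, while the mean log2 CPM of the acinar list, which weights its genes equally, was lowest in Dp16 replicate 2 (-1.04 from the WT mean, against -0.32 in Dp16 replicate 3 and -0.52 in WT replicate 4).

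Ligands of these receptors did not pass the test either: edgeR and limma-voom called 0 of the 9 tested. By edgeR 0.47% of all genes were called higher and 0.155% lower. DESeq2 called 0 of the 8 ligands to which it gave an adjusted p, and it gave Ccl7 none. By edgeR 0 ligands had an unadjusted p below 0.05 in either direction, against 12.7% and 11.9% of all genes. Csf1 and Il34, which maintain macrophages through Csf1r, had 19.99 to 26.2 and 12.1 to 18.1 CPM in WT and 22.8 to 27.8 and 15.3 to 22.6 CPM in Dp16. Ccl2 and Ccl7, the ligands of Ccr2, had 3.68 and 4.74 CPM in Dp16 replicate 3 against 0.604 to 1.84 and 0.344 to 0.72 CPM in WT. In the other Dp16 libraries Ccl2 and Ccl7 had 0.277 to 0.704 and 0.0953 to 0.338 CPM. Their log2 fold changes were -1.26 and -1.16 without Dp16 replicate 3. Whether these ligands bear on the level of Ccr2 was not tested. Flt3l, the ligand of Flt3, had 1.601, 1.61, 1.33 and 1.11 CPM in WT and 2.23, 1.27, 2.18 and 1.79 CPM in Dp16, with replicate 2 the lowest Dp16 library as for Flt3 (0.40, edgeR adjusted p = 0.283). Cx3cl1, Xcl1, Gas6 and Pros1 had log2 fold changes of 0.05, 0.36, 0.02 and 0.13, and Csf2, which encodes GM-CSF, was too low to be tested, at 0 to 0.109 CPM.

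Further genes of the same cells were taken from lists that do not contain the 36. Of 37 tested macrophage and monocyte genes outside the list, 0 were called, 9 were higher and 4 lower at an unadjusted p below 0.05 (12.7% and 11.9% of all genes), and the median log2 fold change was 0.37 (0.01 over all genes), or 0.13 without Dp16 replicate 3. DESeq2 called 2 higher and 3 lower, and limma-voom 0. Libraries of the 2 genotypes did not overlap for 3 of the 37 in the higher and 3 in the lower direction, against 7.11% and 6.96% of all genes. Nr4a1, a nuclear receptor needed by patrolling monocytes, had 14.7 to 19.2 CPM in WT and 14.4, 10.5, 8.65 and 11.9 CPM in Dp16, with no overlap (-0.56, edgeR adjusted p = 0.0915). Which cells of the gland gave the Nr4a1 reads was not tested. Marco, a scavenger receptor for bacteria, was lower in all 4 Dp16 libraries at 0 to 0.167 CPM against 0.198 to 0.655 CPM in WT (-2.02, edgeR adjusted p = 0.131). Clec7a, the receptor for fungal glucans, and Hpgds, a prostaglandin synthase, had log2 fold changes of 1.16 and 0.47 (edgeR adjusted p = 0.121 and 0.133). Hpgds was higher in all 4 Dp16 libraries than in any WT library.

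Of 18 tested dendritic cell genes outside the list, 0 were called, 7 were higher and 0 lower at an unadjusted p below 0.05 (12.7% and 11.9% of all genes), with a median log2 fold change of 0.57, or 0.38 without Dp16 replicate 3. DESeq2 called 4 higher, limma-voom 0, and edgeR without Dp16 replicate 2 called 2, Btla and Wdfy4 (adjusted p = 0.0234 each). Wdfy4, needed for cross-presentation by type 1 dendritic cells and also expressed in B cells, had 8.99 to 11.1 CPM in WT and 17.8, 10.6, 19.4 and 16.5 CPM in Dp16 (0.66, edgeR adjusted p = 0.085). Btla, an inhibitory receptor of lymphocytes and type 1 dendritic cells, had 0.585 to 0.85 CPM in WT and 2.89, 0.78, 3.64 and 1.80 CPM in Dp16 (1.74, edgeR adjusted p = 0.0732). Both had replicate 2 within the WT range and the other Dp16 libraries above it. Irf4, a transcription factor of type 2 dendritic cells and plasma cells, differed from them in that all 4 Dp16 libraries, replicate 2 included, were above WT: 5.62, 5.34, 4.65 and 3.46 CPM in WT and 11.2, 9.83, 7.33 and 6.25 CPM in Dp16 (0.86, edgeR adjusted p = 0.0778, and 0.0358 with the replicate block). Klrb1b, a lectin receptor, was also above WT in all 4 Dp16 libraries (1.03, edgeR adjusted p = 0.124). Libraries of the 2 genotypes did not overlap for 2 of the 18 in the higher and 0 in the lower direction, against 7.11% and 6.96% of all genes.

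Of 20 partners of the receptors, the oxidase and the Toll-like receptors, 0 were called, 5 were higher and 1 lower at an unadjusted p below 0.05 (12.7% and 11.9% of all genes), with a median log2 fold change of 0.29, or 0.09 without Dp16 replicate 3. DESeq2 called 2 higher and 1 lower, and limma-voom 0. Libraries of the 2 genotypes did not overlap for 1 of the 20 in the higher and 1 in the lower direction, against 7.11% and 6.96% of all genes. Itgb2, the chain that pairs with Itgam and Itgax, had 7.29 to 8.07 CPM in WT and 11.3, 8.57, 22.5 and 10.99 CPM in Dp16, all 4 above WT (0.79, edgeR adjusted p = 0.126). Its log2 fold change was 0.42 without Dp16 replicate 3. Syk, the kinase recruited by the Fc receptor adaptors, and Hcst, an adaptor of natural killer and myeloid receptors, had log2 fold changes of 0.69 and 0.85 (edgeR adjusted p = 0.148 and 0.121). Tirap, an adaptor of Tlr2 and Tlr4, was lower in all 4 Dp16 libraries, at 21.9, 21.6, 18.3 and 23.1 CPM against 29.2, 27.9, 26.0 and 27.1 CPM in WT (-0.38, edgeR adjusted p = 0.0695, and 0.0459 with the replicate block).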

How the data were processed

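Total RNA from submandibular glands was isolated with a column kit and sequenced from stranded, ribosomal RNA-depleted libraries, per the labels' protocols. Each library has its own deposited table of read counts by Ensembl gene number, all whole numbers. Per the submitters' processing notes, the authors used FastQC, STAR, HTSeq and DESeq2 with the build GRCm38. Their versions, the annotation release and the strand setting were not given in the sources used here. The 5 rows that name no gene held 58.1% to 65.4% of the reads and were left out. Gene symbols, coordinates and exon lengths came from GENCODE M21 on GRCm38, which matched 54809 of the 54838 genes.

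Counts were tested in R 4.3.3 with edgeR 4.0.16: default expression filter, TMM scaling, quasi-likelihood F-test of genotype, two-sided, Benjamini-Hochberg adjustment over the 19358 genes tested, calls at an adjusted p below 0.05. Scores are means of log2 CPM with a prior count of 2. The 36 genes, the other lists and the tests were chosen with earlier results of these data known. All 36 genes and all ligands are named, and from each other list up to 4 genes (up to 3 from a list of markers of other cells, with Ptprc) by smallest p. Markers named for being at 0 were chosen after their values were seen. From the marker lists of mast cells, endothelium, fibroblasts, fat, red blood cells, acinar cells and granular ducts no gene is named, a choice made after the values were seen. The alternatives were DESeq2 1.42.0, limma-voom 3.58.1 with quality weights, other scalings and filters, an adjusted p below 0.10, 1 surrogate variable from sva 3.50.0, the replicate number as a block, and each library left out in turn. Deviations of libraries with the same replicate number from their group means correlated across genes (r = 0.36, 0.23, 0.17 and 0.21 for numbers 1 to 4). The numbers, taken from the sample titles, were therefore used as pairing, but in the replicate block alone. The main test did not use the pairing. The pairing of number 4 is in doubt: that WT library correlated best with Dp16 replicate 2 and carries the number 5 in its library name, so every value with the replicate block rests on a doubtful pair. No pair of replicates agreed within sampling noise. The fits were tested on simulated data.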

Additional observations from a re-analysis of the deposited data

Results flagged for a closer look

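In each group of 4 libraries, a highest or lowest library was singled out where its gap to the nearest other library, divided by the range of the group, exceeded the 95% critical value of Dixon's test. Chance singles out about 1 in 20 groups. Of the 72 groups of the 36 genes, 8 had a high library in Dp16 replicate 3: Cd68 at 14.2 CPM, Itgam at 10.9 CPM, Fcgr1 at 14.3 CPM, Fcer1g at 11.9 CPM, C1qa at 69.8 CPM, C1qb at 53.7 CPM, C1qc at 45.8 CPM and Siglec1 at 38.7 CPM. Dp16 replicate 2 was singled out as low for Csf1r at 48.4 CPM, Ccr2 at 17.1 CPM and Clec9a at 0.459 CPM. Among WT libraries, replicate 1 was high for Cx3cr1 at 10.9 CPM and Csf2rb at 3.11 CPM, and replicate 3 was high for Tlr2 at 4.02 CPM. Of the 18 groups of the ligands, Dp16 replicate 3 was high for Csf1 at 27.8 CPM, Ccl2 at 3.68 CPM and Ccl7 at 4.74 CPM, and Dp16 replicate 2 was high for Cx3cl1 at 24.0 CPM. Genes of one library are not independent of each other, and the cause of these values was not tested.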

How the results depend on the processing

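Of the 36 genes, DESeq2 called 4, an adjusted p below 0.10 called 2, and limma-voom, no expression filter and a stricter filter (CPM at or above 1 in 4 libraries) each called 1. Leaving out 1 library at a time gave 6 without Dp16 replicate 2 and 0 without each of the others. Over all genes, 121 were called by edgeR, 1996 by DESeq2, 396 by limma-voom, 223 without a filter and 157 with the stricter filter. With 1 surrogate variable 436 were called, and at an adjusted p below 0.10 1308. With 1 library left out the counts were 63, 0, 4 and 11 without WT replicates 1 to 4 and 0, 446, 56 and 14 without Dp16 replicates 1 to 4. The replicate block, which pairs libraries by number, called 776 of all genes, 0 of the 36, and of the other named genes Irf4, Tirap, Ptprc and Cd79b beside Klrd1. The median log2 fold change of the 36 genes was positive in every alternative run, 0.11 without Dp16 replicate 3 and 0.27 to 0.41 without each of the others.

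Log2 fold changes that changed sign under limma-voom were Cd68 -0.17, Fcgr1 -0.031, C1qa -0.017, C1qc -0.052, Mrc1 -0.12, Tlr4 -0.022, Ccl2 -0.67, Ccl7 -0.48 and Cx3cl1 -0.083. Under the replicate block they were Cd68 -0.027, Mrc1 -0.013, Ccl2 -0.53 and Ccl7 -0.15. Under 1 surrogate variable they were Cd68 -0.17, Fcer1g -0.0047, C1qa -0.028, C1qc -0.094, Mrc1 -0.081, Cd14 -0.026, Zbtb46 -0.022, Ccl2 -1.12, Ccl7 -0.87 and Gas6 -0.042. Under TMM without the 1% most abundant genes they were Tyrobp 0.0076. Under the stricter CPM filter they were Tyrobp 0.030. With 1 library left out at a time, values that changed sign ranged, by gene, as follows in log2: Cd68 -0.37 to 0.27, Aif1 -0.051 to 0.41, Spi1 -0.024 to 0.44, Fcgr1 -0.27 to 0.67, Fcer1g -0.13 to 0.32, Tyrobp -0.14 to 0.074, C1qa -0.16 to 0.29, C1qb -0.13 to 0.39, C1qc -0.19 to 0.18, Mrc1 -0.20 to 0.13, Cd14 -0.079 to 0.16, Zbtb46 -0.015 to 0.15, Ccl2 -1.26 to 0.41, Ccl7 -1.16 to 1.68, Cx3cl1 -0.22 to 0.24 and Gas6 -0.059 to 0.075. The causes of these sign changes were not tested. Relative log expression and TMM without the most abundant genes kept every other named gene's sign. Precision is limited by 4 libraries a group and, for Xcr1 and Clec9a, by low counts.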
